A study of Mus musculus with 12 samples.

Results

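Replication-dependent and testis histone genes were examined in whole testes of 2-week-old C57BL/6N mice, measured on Affymetrix whole-transcript arrays with 1 array per testis. A member was any transcript cluster, the array's unit of measurement, whose gene symbols in the platform annotation were all those of the linker histones H1f1 to H1f6 or of the H2ac, H2bc, H3c and H4c genes, under current or older names. This rule used no measured value and took 57 of 41345 clusters, which named 58 histone genes between them. The 12 testes were 3 of Sox3 knockout mice (KO), 3 of Sox3-Sox2KI mice (KI) and 6 of wild-type mice, of which WT 1, WT 2 and WT 3 came from the KI litters and WT 4, WT 5 and WT 6 from the KO litters. Both mutant lines were made with CRISPR/Cas9, no group received a treatment, and the labels call the replicates biological and name no other allele. Sox3 itself, an X-linked transcription factor gene of the SoxB1 group, was at a log2 level of 7.28 ± 0.06 (SD, n = 6) in WT, 6.61 ± 0.04 (n = 3) in KO and 6.99 ± 0.26 (n = 3) in KI testes. Where its probes lie relative to the edits is not known here, so this level does not check the alleles. The labelled tissue carried its markers, with all 6 Sertoli cell genes and all 4 pan-germ cell genes read above background, and of the 5 spermatid genes measured 2 (Odf1 and Spata18) read above it and the others, Prm1 and Tnp1 among them, did not. The 3 epididymis genes measured were not above it either.

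Replication-dependent histone genes supply the histones that package new DNA in S phase, and their short transcripts lack introns and end in a stem-loop in place of a poly(A) tail. They lie in clusters of near-identical copies, the largest of them on mouse chromosome 13 and another on chromosome 3. H1f6 (the H1t linker histone), H2ac1 (TH2A) and H2bc1 (TH2B) are germ cell members of these clusters, made in germ cells that prepare for and pass through meiosis, and known to replace part of the somatic histones in meiotic chromatin before protamines take over. H1f1 is a linker histone whose messenger RNA is also abundant in testis.

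Of the 57 clusters, 27 named 1 gene and 30 named several near-identical genes, whose signals cannot be split. There were 5 clusters of H1 genes, 18 of H2A, 13 of H2B, 12 of H3, 8 of H4 and 1 that named both H1 and H2B genes, and no H3 cluster named a single gene. In 41 clusters all genes lay on chromosome 13, in 8 on chromosome 3, and in 8 on both. Both copies of the cluster of 12 H2A genes held identical values, as did both copies of the cluster of H2ac18, H2ac19 and H2ac20, which left 55 clusters with distinct values. A background limit of 5.33 was set at the 95th percentile of the means of 1108 olfactory receptor clusters, a gene family expressed mainly in the nose. Above it lay 28 of the members, among them 3 of the 5 H1, 11 of the 18 H2A, 7 of the 13 H2B, 2 of the 12 H3 and 5 of the 8 H4 clusters. The other 29 members were at or under the limit, so their differences carry little information on the genes they name.

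The promoters of the germ cell members and of H1f1 are shown because H1f6 and H2bc1 gave the largest differences among the members, with H2bc3, a somatic-type H2B gene, for comparison. Sequences are RefSeq's on GRCm38.p6, in which 53 of the 58 genes had an entry, with 54 windows of 250 bases before an annotated start. H2ac1 and H2bc1 are neighbours transcribed away from each other, and their annotated starts lie 280 bases apart. The annotated start of H2bc1 falls on an ATG, unlike those of H1f6, H1f1 and H2bc3. It may thus be the start of translation, and the H2bc1 window may hold transcribed bases. The stretch printed is 200 of the 280 bases, at chr13:23934237-23934436 on the minus strand, read toward H2bc1, and the bases next to its start are left out. The others end at the annotated start and run along the plus strand, for H1f6 at chr13:23695691-23695810, for H1f1 at chr13:23763548-23763667 and for H2bc3 at chr13:23746614-23746733. Capitals mark the octamer ATTTGCAT, the CCAAT box CCAAT, the TATA box TATAAA and the H1 box AAACACA, searched on both strands, and no match overlapped another in these stretches.
H2bc1 and H2ac1: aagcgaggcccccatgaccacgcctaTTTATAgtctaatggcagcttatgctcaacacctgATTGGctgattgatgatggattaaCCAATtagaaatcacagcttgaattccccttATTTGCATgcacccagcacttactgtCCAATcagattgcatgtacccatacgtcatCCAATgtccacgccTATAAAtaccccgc
H1f6: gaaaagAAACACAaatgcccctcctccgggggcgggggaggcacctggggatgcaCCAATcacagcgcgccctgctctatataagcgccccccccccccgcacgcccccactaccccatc
H1f1: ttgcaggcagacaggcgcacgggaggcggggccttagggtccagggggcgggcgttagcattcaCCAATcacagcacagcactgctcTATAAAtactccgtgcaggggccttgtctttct
H2bc3: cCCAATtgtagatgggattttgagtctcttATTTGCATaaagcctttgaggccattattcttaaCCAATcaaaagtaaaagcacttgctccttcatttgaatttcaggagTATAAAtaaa
The stretch shared by H2bc1 and H2ac1 held 1 octamer, 4 CCAAT boxes and a TATA box facing each gene. The octamer, known as the element of H2B promoters that is bound by POU factors, was in 13 of the 54 histone windows (24.1%), against 1.60% of all 32841 windows of the same length. It was in 7 of 14 H2B windows (50%) and 6 of 17 H2A windows (35.3%), and in none of the H1, H3 and H4 windows. A CCAAT box was in 46 of 54 windows (85.2%, against 33.9% of all) but in 1 of 7 H4 windows. TATAAA was in 26 of 54 windows (48.1%, against 12.4%). The H1 box was in 9 of 54 windows (16.7%, against 6.25%) and in 5 of 6 H1 windows, H1f6 among them and H1f1 not. It was also in 2 H2A and 2 H2B windows, those of H2ac1 and H2bc1 among them, for this pair outside the bases printed. The windows of H2ac1 and H2bc1 overlap, so a match in the overlap counts for both classes. These matches describe letters in a window and say nothing of which factors bind there.

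The largest differences of KO from WT testes were in 2 germ cell histones, -1.23 for H1f6 and -0.77 for H2bc1 on the log2 scale. The third germ cell member, H2ac1, differed by -0.32, and the linker histone H1f1 by -0.38. In KI testes the same 4 differences from WT were -0.31, -0.18, -0.03 and -0.08. Among the 54 clusters outside the germ cell members, H1f1 included, differences ran in both directions, with a median of -0.10. No member passed an adjusted p of 0.05 in limma over all 41345 clusters, where the smallest was 0.073 for H2bc1 and 0.0193% of all clusters passed. In the planned fit restricted to clusters above the background limit, 6 of the 28 members there passed, 5 lower and 1 higher in KO, where 2.5% of all such clusters were called lower and 2.61% higher. These calls were not stable: in that fit no member passed once WT 1, WT 2, WT 3, WT 5, KO 1, KO 3 or KI 3 was left out, 1 passed without KI 2, and 5 to 8 passed without WT 4, WT 6, KO 2 or KI 1. Where no member passed, the share of all such clusters called was 0.00829% (without KO 3) to 0.415% (without KI 3). It was 1.32% without KI 2, 2.88% without KI 1, 7.39% without WT 4, 8.35% without WT 6 and 11.4% without KO 2. The text below uses this second fit where it says that a member fell or rose. Each such call, those of the gene lists included, is bound by this limit. A whole testis is a mixture of cells, and fewer cells of a type and less RNA per cell cannot be told apart in these values.

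H1f6, a linker histone that appears in mid-meiotic spermatocytes, was at 8.50, 8.57 and 8.26 in WT 1 to WT 3 and at 7.39, 8.53 and 7.44 in WT 4 to WT 6. It was at 6.58, 7.63 and 6.44 in KO 1 to KO 3 and at 7.55, 8.16 and 7.71 in KI 1 to KI 3. KO 1 and KO 3 lay below every other array, while KO 2 lay above WT 4 and WT 6, so the groups overlapped. The difference of KO from WT was -1.23 (SE 0.34, 95% interval -1.96 to -0.50), a 2.34-fold lower level, with a limma adjusted p of 0.0998 over all clusters and 0.0545 among those above the limit. An exact two-sided permutation test over the 84 splits of 3 against 6 arrays gave p = 0.0714, where the smallest it can give is 0.0238. With 1 array left out the difference ran from -1.60 (without KO 2) to -1.01 (without KO 3). Over all clusters the limma adjusted p ran from 0.0341 to 0.329 in these 12 fits. Only the fit without KO 2 passed H1f6, and it called 3.05% of all clusters.

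H2bc1, the germ cell H2B that replaces much of the somatic H2B in spermatocytes, was at 12.35, 12.32 and 12.19 in WT 1 to WT 3 and at 11.94, 12.38 and 11.83 in WT 4 to WT 6. The KO testes were at 11.29, 11.79 and 11.10, and the KI testes at 11.92, 12.14 and 11.90. All 3 KO arrays lay below all 6 WT arrays, KO 2 by a narrow margin, and the KI arrays lay within the WT range. H2bc1 fell in KO testes by 0.77 on the log2 scale (SE 0.16, 95% interval -1.13 to -0.41), a 1.71-fold lower level. Its limma adjusted p was 0.0352 among clusters above the limit and 0.0726 over all clusters, and the exact permutation p was 0.0238.

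H2ac1, the germ cell H2A that pairs with H2bc1, was at 13.34, 13.34 and 13.37 in WT 1 to WT 3 and at 13.31, 13.48 and 13.31 in WT 4 to WT 6. KO testes were at 13.05, 13.16 and 12.90, and KI testes at 13.32, 13.35 and 13.33. The KO arrays lay apart below the others, and the KI arrays were within the WT range. H2ac1 fell in KO by 0.32 (SE 0.07, 95% interval -0.48 to -0.16), a 1.25-fold lower level, with a limma adjusted p of 0.0352 above the limit and 0.0742 over all clusters, and an exact permutation p of 0.0238.

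H1f1 was at 8.30, 8.31 and 8.19 in WT 1 to WT 3, at 8.23, 8.07 and 8.19 in WT 4 to WT 6, at 7.84, 8.04 and 7.61 in KO and at 8.24, 8.14 and 8.03 in KI testes. The KO arrays again lay below all WT arrays, with KO 2 nearest to them. H1f1 fell in KO by 0.38 (SE 0.10, 95% interval -0.59 to -0.17), with a limma adjusted p of 0.0417 above the limit and 0.087 over all clusters, and an exact permutation p of 0.0238. The other H1 gene above the limit, H1f2, a widely expressed somatic linker histone, was at 7.79 to 8.06 in WT and 7.82 to 7.94 in KO, a difference of -0.08 (95% interval -0.24 to 0.08).

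**Figure D1:**
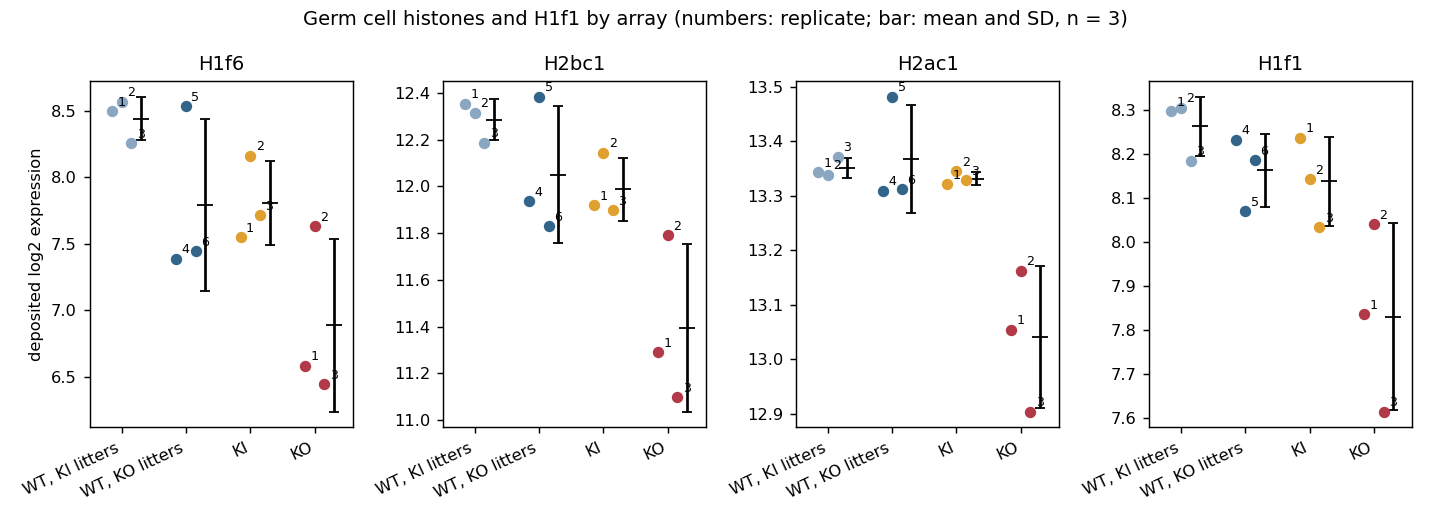
Deposited log2 expression (vertical axes, one scale per gene) of H1f6, H2bc1, H2ac1 and H1f1 in WT testes of KI litters, WT testes of KO litters, KI and KO testes. Each point is 1 array with its replicate number, and bars give the mean and SD of 3 arrays. KO arrays lie below all WT arrays for H2bc1, H2ac1 and H1f1 (for H1f1, KI 3 lies just below KO 2), while for H1f6 KO 2 (7.63) lies above WT 4 (7.39) and WT 6 (7.44).

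Among the replication-dependent clusters, 1 shared H2B cluster and 1 shared H4 cluster fell in KO testes. The cluster that names the H2B genes H2bc13, H2bc15, H2bc11 and H2bc7 was at 12.48, 12.37, 12.35, 12.18, 12.29 and 12.35 in WT 1 to WT 6, at 12.08, 11.97 and 12.05 in KO and at 12.38, 12.25 and 12.25 in KI testes. It fell in KO by 0.30 (SE 0.08, limma adjusted p = 0.039 above the limit and 0.0849 over all clusters). The cluster naming 6 H4 genes, H4c17, H4c8, H4c9, H4c18, H4c1 and H4c2, was at 7.21 to 7.30 over the WT arrays, at 7.10, 6.91 and 6.96 in KO and at 7.30, 7.28 and 7.16 in KI testes. It fell in KO by 0.28 (SE 0.07, limma adjusted p = 0.037 above the limit and 0.0818 over all clusters). In both clusters every KO array was below every WT array, and the KI arrays overlapped with WT. The single-gene clusters of H4c17, H4c9 and H4c1 gave differences of KO from WT of -0.12, -0.33 and 0.03. Those of H4c8 and H4c2, under the limit, gave 0.31 and -0.07. None of these single-gene clusters passed.

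One cluster of 10 H2A genes, led by H2ac4, had its KO arrays (9.78, 9.53 and 9.58) below all WT arrays (9.87 to 9.97), with a difference of -0.30 and a limma adjusted p of 0.0519 above the limit, so it did not pass. Another cluster naming the same 10 genes, led by H2ac22, was at 11.42 to 11.75 in WT and 11.37 to 11.56 in KO, a difference of -0.14 (95% interval -0.32 to 0.05). The cluster of 12 H2A genes was at 11.89 to 12.09 in WT and at 11.85 to 11.95 in KO (difference -0.11, 95% interval -0.25 to 0.04). Clusters that name the same H2A genes thus gave differences of unequal size, and which copies each one reads is not known here.

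The single-gene clusters of the H2B genes H2bc3 and H2bc12 gave differences of -0.29 and -0.25, and H4c12 gave -0.20, with limma adjusted p from 0.235 to 0.305 over all clusters. H3c15 and the 7 other H3 genes in its cluster, the H3 cluster that read highest among the 12, were at 8.75 to 8.87 in WT and at 8.79, 8.59 and 8.58 in KO (difference -0.19, limma adjusted p = 0.199). The H3 cluster led by H3c10 was at 5.38 to 6.00 in WT and 5.89 to 6.13 in KO (difference 0.19, limma adjusted p = 0.502). None of these passed in either fit.

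Among clusters with higher values in KO testes, 1 passed. H2bc21, an H2B gene of the chromosome 3 cluster that is also transcribed as a polyadenylated message in differentiated cells, was at 5.44, 5.59, 5.43, 5.59, 5.72 and 5.68 in WT 1 to WT 6, at 5.92, 5.91 and 6.01 in KO and at 5.40, 5.69 and 5.71 in KI testes. All KO arrays lay above all WT arrays, and H2bc21 rose by 0.37 (SE 0.09, limma adjusted p = 0.0415 above the limit and 0.0869 over all clusters), at a level close to the background limit. Its neighbours H2ac21 and H2ac20 were at 7.28, 6.73 and 6.85 and at 7.66, 7.21 and 7.20 in KO, against 6.42 to 6.73 and 6.67 to 7.33 in WT. Their differences of 0.36 and 0.43 did not pass (limma adjusted p = 0.0811 and 0.0913 above the limit). H1f5, under the limit, was at 6.01, 5.29 and 5.43 in KO and 4.77 to 5.38 in WT, a difference of 0.47 (limma adjusted p = 0.171 over all clusters).

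Counted over the members, 10 had an unadjusted limma p under 0.05 and were lower in KO and 5 were higher, against 7.26% and 10.3% of all 41345 clusters. Adjusted over the 25335 clusters with a symbol, no member passed, and 0.138% of those clusters did. All 3 KO arrays lay below all 6 WT arrays in 6 of the 57 members and above them in 3, against 3.24% and 5.02% of all clusters. The 6 were H2bc1, H2ac1, H1f1 and the shared H2B, H4 and H2A clusters given above, and the 3 were H2bc21, H2ac21 and a cluster of 10 H2A genes under the limit. With limma-trend and a robust prior, 3 members passed (H2ac1, H2bc1 and the H2bc13 cluster), where 1.67% of all clusters passed. A fit on clusters with a symbol, added after seeing the data, passed the same 6 members as the fit above the limit, where 4.32% of its clusters passed.

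**Figure D2:**
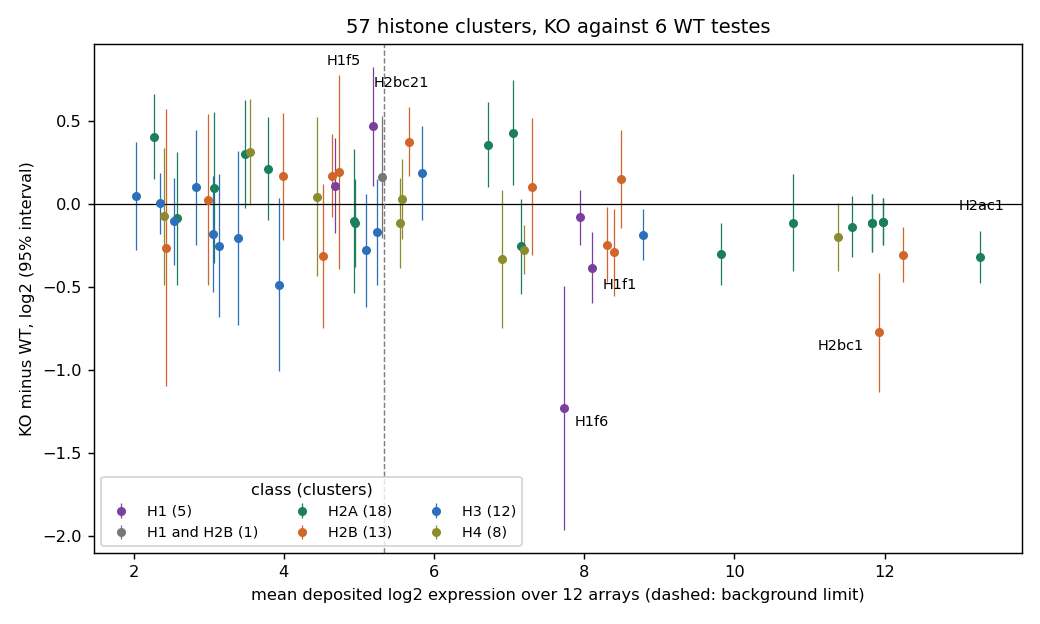
Log2 difference of KO from WT with its 95% interval (vertical axis) against the mean deposited log2 level over 12 arrays (horizontal axis) for the 57 histone clusters, coloured by histone class. The dashed line is the background limit of 5.33. H1f6 (-1.23) and H2bc1 (-0.77) lie farthest below 0, and most points under the limit have wide intervals around 0.

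The median difference of KO from WT was -0.77 over the 3 germ cell members and -0.10 over the 54 others, against 0.04 over all 41345 clusters. Of the 25 others above the limit 18 were lower and 7 higher in KO (median -0.11), and of the 29 members at or under it 13 were lower and 16 higher (median 0.03). The 24 other members naming 1 gene had a median of 0.04, and the 30 members naming several genes one of -0.11, and several of the latter name the same genes. By class, the medians of members above the limit were -0.38 for H1, -0.11 for H2A, -0.25 for H2B, -0.20 for H4 and 0.00 for the 2 H3 clusters. By chromosome, a split chosen after the values were seen, 15 of the 18 clusters of chromosome 13 above the limit and outside the germ cell members were lower in KO (median -0.17). On chromosome 3 it was 2 of 6 (median 0.23), and these 2 are the copies of the H2ac18, H2ac19 and H2ac20 cluster with identical values. The 2 identical copies of the cluster of 12 H2A genes are among the 15 of chromosome 13. Members are not replicates, and no test was made of these counts.

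Array by array, the median difference of the 3 germ cell members from their WT means was -0.88, -0.38 and -1.07 in KO 1 to KO 3, and -0.25, -0.01 and -0.27 in KI 1 to KI 3. Among WT arrays it was between 0.02 and 0.22 in WT 1, WT 2, WT 3 and WT 5, and -0.23 and -0.34 in WT 4 and WT 6. KO 2 was thus close to WT 4 and WT 6. Over the 25 others above the limit the medians were -0.05, -0.13 and -0.18 in KO, 0.03, -0.02 and -0.04 in KI and -0.06 to 0.11 in WT testes.

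**Figure D3:**
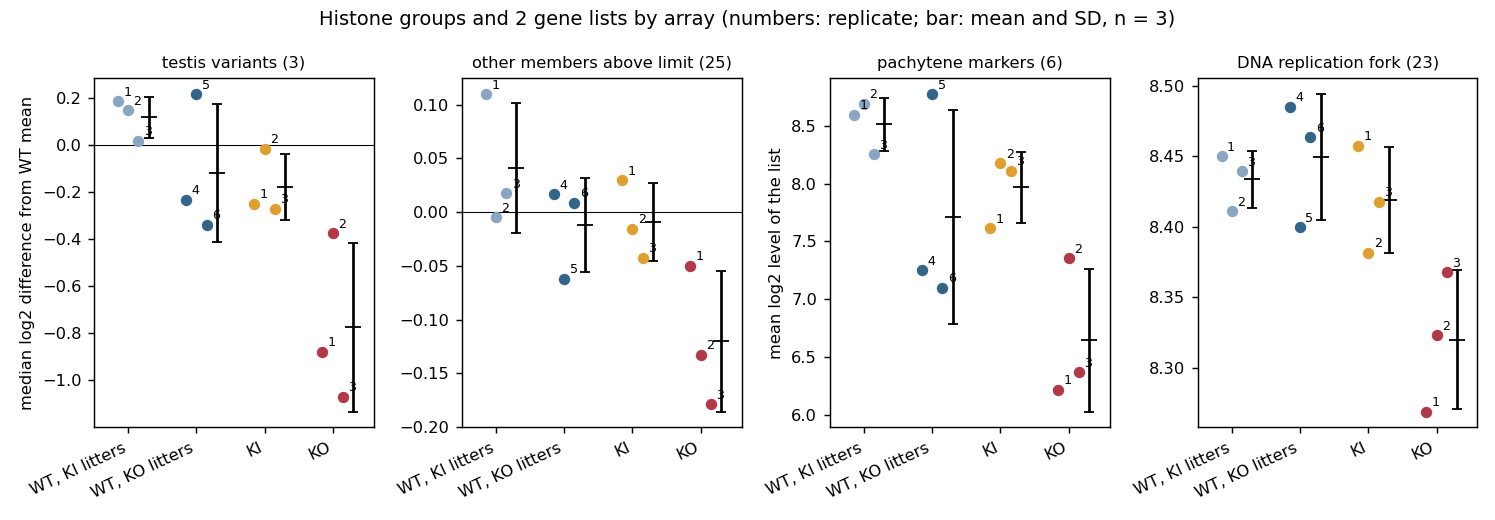
The first 2 panels show the median log2 difference from the WT mean over the 3 germ cell histone clusters and over the 25 other clusters above the background limit, and the last 2 the mean log2 level of 6 pachytene markers and 23 DNA replication fork genes. Points are arrays with their replicate number, and bars give mean and SD of 3 arrays. In the germ cell histone and pachytene panels KO 1 and KO 3 are lowest, and KO 2, WT 4 and WT 6 lie close together.

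Pachytene and meiotic markers were low in the same KO arrays as the germ cell histones, and the mean level of the spermatid markers was not. All 6 pachytene markers were measured, and their mean level was 6.22, 7.35 and 6.37 in KO 1 to KO 3, 7.25 and 7.10 in WT 4 and WT 6, 8.25 to 8.77 in the other WT testes and 7.61 to 8.17 in KI testes. The 5 meiotic markers measured of 6 listed ranged from 7.997 to 8.88 in KO, 9.01 to 9.61 in WT and 8.96 to 9.30 in KI testes, and the 4 pan-germ markers from 9.96 to 10.32 in KO and 10.32 to 10.88 in WT testes. All 5 meiotic markers and 3 of 6 pachytene markers fell in KO testes in the fit above the limit. The 5 spermatid markers measured of 6 listed had mean levels of 5.86 to 6.05 in KO and 5.76 to 6.07 in WT testes, with a KO median of 0.11. Only 2 of these 5 read above the background limit. At an unadjusted limma p under 0.05, 1 of the 5 was lower and 1 higher in KO. Spermatogonial markers, 6 of 6 measured, had a KO median of 0.11, with Gfra1, a receptor of undifferentiated spermatogonia, higher by 0.70 (limma adjusted p = 0.0123 over all clusters). Of these 6 markers 2 were lower in KO, 1 of them at an unadjusted limma p under 0.05. Mean levels of somatic lists were 9.58 to 9.94 in KO against 9.33 to 9.64 in WT testes for the 6 Sertoli genes, and 9.16 to 9.44 against 7.81 to 9.03 for the 4 Leydig genes measured of 5. At an unadjusted limma p under 0.05 all 6 Sertoli and 2 of the 4 Leydig genes were higher in KO and none lower. All 4 pan-germ genes were lower. Of all clusters 10.3% were higher and 7.26% lower. In the fit above the limit 2 pan-germ genes fell, 1 Leydig gene rose and no Sertoli gene passed. The peritubular, endothelial and macrophage lists, each of 3 genes, had KO medians of 0.14, 0.20 and 0.17. The part of these markers in the histone differences was not tested.

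In KI testes no histone cluster stood apart from WT. No member passed in limma over all clusters (smallest adjusted p = 0.986, with 0% of all clusters called). At an unadjusted p under 0.05 there were 1 lower and 2 higher of the 57 members. Of all 41345 clusters 1144 were lower and 917 higher (4.98% together). No member had its 3 KI arrays all below or all above the 6 WT arrays, a pattern seen in 2.97% of all clusters. The differences of KI from WT were -0.31 for H1f6 (95% interval -1.04 to 0.43), -0.18 for H2bc1 (-0.54 to 0.18), -0.03 for H2ac1 (-0.19 to 0.13) and -0.08 for H1f1 (-0.29 to 0.14). For H1f6 and H2bc1 these intervals still include differences of some size. The member of smallest p was H4c14, an H4 gene under the background limit, at 5.44, 4.79 and 4.49 in KI and 3.95 to 4.61 in WT testes (difference 0.64).

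The mutants were then set against each other. KI exceeded KO by 0.92 for H1f6, 0.59 for H2bc1, 0.29 for H2ac1 and 0.31 for H1f1, with limma adjusted p of 0.325, 0.247, 0.227 and 0.278 over all clusters. No member passed, and neither did any other cluster (0%). At an unadjusted p under 0.05, 9 of the 57 members were higher and 5 lower in KI. Of all 41345 clusters 2377 were higher and 3447 lower (14.1% together). All KI arrays lay above all KO arrays for H2ac1 and H2bc1, for which exact permutation gave p = 0.1, the smallest that 20 splits of 3 against 3 allow. The same held for H2bc3, H2bc12, H4c12, the 6-gene H4 cluster and the clusters led by H2bc13 and H2ac22. All KI arrays lay below all KO arrays for H2bc21, H2ac20, the H3c10 cluster and, under the background limit, H1f3, H1f5, H4c8 and H2bc14. How many of all clusters show either pattern was not counted. For H1f6 and H1f1 KO 2 overlapped with the KI arrays, and the exact permutation p was 0.2.

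Each mutant had wild-type littermates of its own, and the WT testes were compared between litters. WT testes of KI litters exceeded those of KO litters by 0.65 for H1f6 (95% interval -0.13 to 1.43) and 0.24 for H2bc1 (-0.17 to 0.64), and by 0.10 for H1f1 and -0.02 for H2ac1. No member passed (smallest limma adjusted p = 0.903, with 0.00242% of all clusters called). At an unadjusted p under 0.05, 3 of the 57 members were higher and 1 lower. Of all 41345 clusters 1008 were higher and 1175 lower (5.28% together). For H1f6 WT 4 and WT 6 were low, while WT 5 (8.53) was at the level of the KI litters. The member of smallest p was H2bc3, at 8.63, 8.60 and 8.61 in WT 1 to WT 3 and 8.48, 8.13 and 8.27 in WT 4 to WT 6, a difference of 0.32 (95% interval 0.09 to 0.56). KO testes, at 8.30, 8.01 and 8.18 for H2bc3, overlapped with their own littermates.

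Against littermates alone, KO differed by -0.90 for H1f6 (95% interval -1.68 to -0.12), -0.66 for H2bc1 (-1.06 to -0.25), -0.33 for H2ac1 (-0.52 to -0.14) and -0.33 for H1f1 (-0.58 to -0.09). No member passed there (smallest limma adjusted p = 0.297, and 0.382 for H1f6, with 0.00242% of all clusters called). The exact permutation p was 0.3 for H1f6 and 0.1, the smallest possible, for each of the other 3. KI differed from its littermates by -0.63 for H1f6 (-1.41 to 0.15), -0.30 for H2bc1 (-0.71 to 0.11), -0.02 for H2ac1 (-0.21 to 0.17) and -0.13 for H1f1 (-0.37 to 0.12). Within its own litters the KI line thus gave H1f6 and H2bc1 values farther below WT than against all 6 WT testes, and its arrays lay below all 3 littermates for both genes. The exact permutation p was 0.1 for each, the smallest possible. The same held for H2bc3, for the clusters led by H2ac4, H2ac22 and H3c10, and for an H3 cluster under the limit. How many of all clusters show such a separation of 3 against 3 arrays was not counted. The effects in the 2 lines, compared by the interaction contrast in limma, differed by 0.31 for H2ac1 (95% interval 0.04 to 0.58), 0.36 for H2bc1 (-0.22 to 0.94), 0.27 for H1f6 (-0.83 to 1.37) and 0.21 for H1f1 (-0.14 to 0.56). For H1f6 the difference turned to -0.10 without WT 5. None passed (smallest limma adjusted p = 0.905 over the members, with 0% of all clusters called). At an unadjusted p under 0.05 there were 4 members, H2ac1 and the 6-gene H4 cluster higher and H1f5 and the H3c10 cluster lower in the KI effect, against 5.36% of all clusters.

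**Figure D4:**
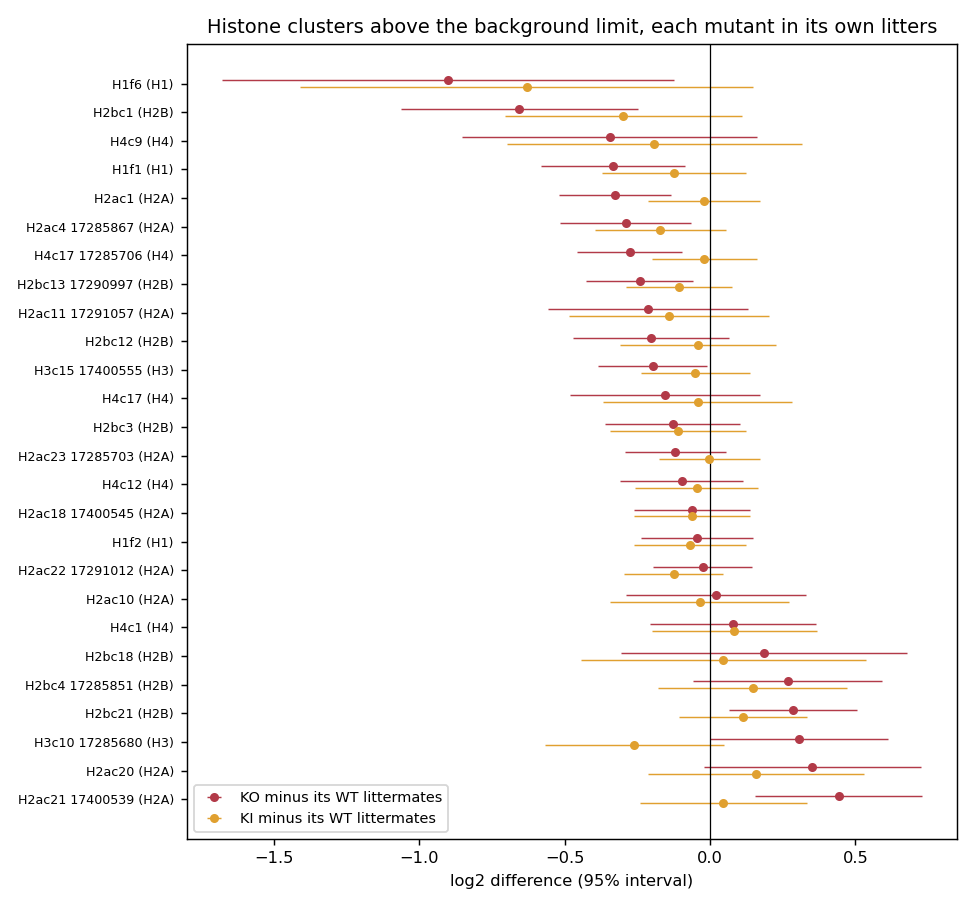
Log2 differences with 95% intervals (horizontal axis) of KO and KI testes from their own 3 WT littermates, for the histone clusters above the background limit with distinct values, sorted by the KO difference. Clusters naming several genes carry the first gene and the cluster number. H1f6 lies lowest in both lines (-0.90 and -0.63), while for H2ac1 the KO interval lies below 0 and the KI value is -0.02.

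Genes that act on histone supply were followed in lists of known function, whose counts are read against the shares given above for all clusters, 7.26% lower and 10.3% higher at an unadjusted p under 0.05, and 2.5% and 2.61% called above the limit. Of 18 genes of histone mRNA transcription and processing none passed in the KO comparison in limma, with 5 lower and 0 higher at an unadjusted p under 0.05, and the list's median was -0.05. The 2 of highest mean, the processing endonuclease Cpsf3 and the exonuclease Xrn2, gave 0.02 and 0.10. Slbp, which binds the stem-loop of histone messages, gave -0.15, and Npat, the coactivator of histone gene transcription, gave -0.14 (limma adjusted p = 0.231 and 0.167 above the limit). Of 14 measured genes of G1/S control none passed in limma either, with 3 lower and 0 higher at an unadjusted p under 0.05 (median -0.06). The 2 of highest mean there, the adaptor Trrap and the cyclin-dependent kinase Cdk2, gave 0.02 and -0.17. Of 24 histone chaperone and assembly genes 1 fell and 1 rose, a count near the share of all clusters called. The gene that fell was Asf1b, a chaperone that hands H3 and H4 to assembly factors in dividing cells, which went from 9.57 ± 0.14 (n = 6) in WT to 8.96 ± 0.24 (n = 3) in KO (-0.60, limma adjusted p = 0.0316). The gene that rose was Atrx, a remodeler that deposits H3.3 with its partner Daxx (0.36, limma adjusted p = 0.0352).

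Of 23 measured DNA replication fork genes 5 fell and none rose (median -0.14). They were the sliding clamp Pcna (-0.25), the helicase subunits Mcm3 (-0.27) and Mcm7 (-0.29), and their partners Gins1 (-0.64) and Cdc45 (-0.31), with limma adjusted p from 0.024 to 0.0471. Of 17 measured replacement and other histone variants 1 fell, the linker histone H1f10, from 9.23 ± 0.05 (n = 6) to 8.67 ± 0.20 (n = 3) (-0.56, limma adjusted p = 0.0201), and the list's median was 0.02. H2ax, the variant phosphorylated at DNA breaks and on the sex chromosomes in meiosis, gave -0.28 (limma adjusted p = 0.0578) and did not pass. Of 12 measured factors of the exchange of histones for protamines 2 fell, Brdt, a bromodomain reader of acetylated histones (-1.30, limma adjusted p = 0.0352), and Phf7, a ubiquitin ligase for histones in spermatids (-1.09, limma adjusted p = 0.0492). Brdt is also in the pachytene list. All these calls are from the fit above the limit, and over all 41345 clusters none of the genes in these 6 lists passed.

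**Figure D5:**
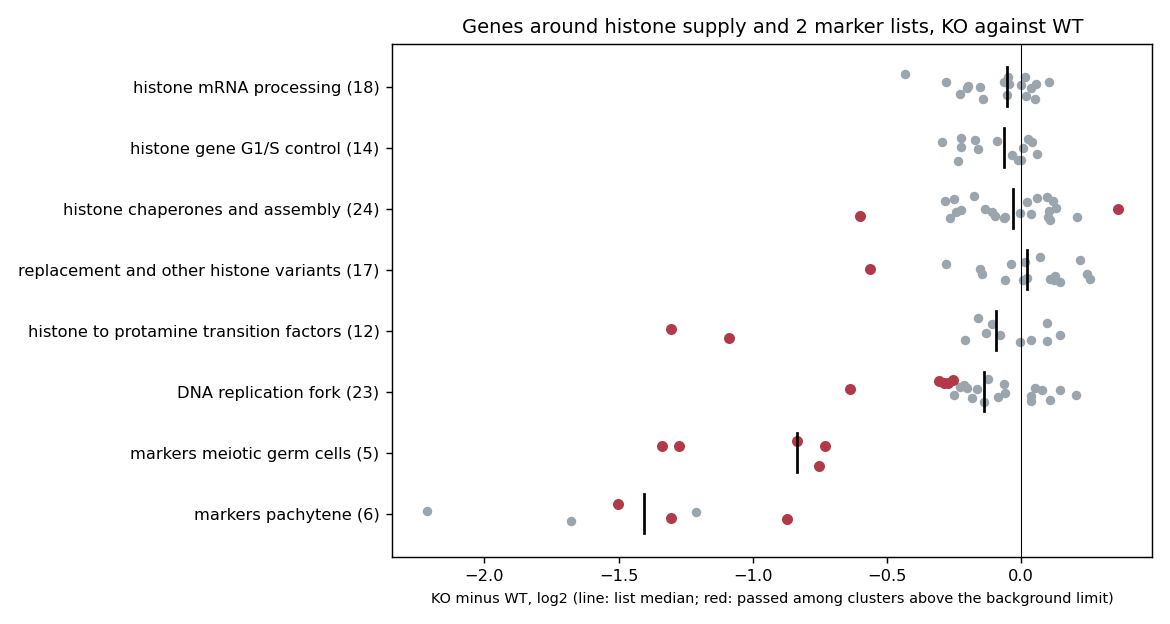
Log2 difference of KO from WT (horizontal axis) for each measured gene of 6 lists around histone supply and of 2 germ cell marker lists, with the number of genes in brackets. Black lines are list medians, and red points passed in the fit on clusters above the background limit. The medians of the 6 supply lists lie between -0.14 and 0.02, and those of the meiotic and pachytene lists at -0.84 and -1.40.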

How the data were processed

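Each transcript cluster had 1 deposited log2 value per array, between 0.915 and 13.93. The submitters' processing notes name RMA, Affymetrix Expression Console and Partek 6.6 without saying what each did. What the authors did to correct background or filter probes is not given in the sources used here. Values normalized to a common distribution show relative change within an array only. Array medians ran from 5.74 to 5.82, no array was left out, and depth was judged from signal. Precision is limited by the number of arrays, and for KO against WT the 95% interval had a median half-width of 0.271. Clusters were named from the platform annotation (23521 with 1 symbol, 1814 with several, 16010 with none).

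All 41345 clusters were fitted with limma 3.58.1 (lmFit and eBayes) in R 4.3.3, with 12 arrays in 3 genotype groups, two-sided, with Benjamini-Hochberg adjustment over all clusters at 0.05 and no filter. Litter comparisons used a fit with 4 label groups. For the lists, a gene with several clusters was read from the one of highest mean. Exact permutation tests used scipy 1.17.1 under Python 3.11.15, with pandas 2.3.3 and numpy 2.4.6 for tables and matplotlib 3.10.9 for figures. The fit was tested on simulated data. The alternatives were median centring, quantile normalization, a background filter, adjustment over clusters with a symbol, array weights, limma-trend, littermate controls, each array left out, and the replicate number as a block.

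The members and lists were chosen with earlier results of these data known. Named were the germ cell members and H1f1, members past the threshold, the 5 of smallest p in each comparison, in each class the 2 clusters of highest mean and the 1 of lowest, and list genes that passed (up to 4 of smallest p) or otherwise the 2 of highest mean. Outside this rule, H2ac20, H2bc12, H2bc14, Slbp, Npat, Mcm7, Prm1 and Tnp1 were named after their values were seen. So were the single-gene clusters of H4c17, H4c9, H4c1 and H4c8 and the cluster of H2ac18, H2ac19 and H2ac20.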

Additional observations from a re-analysis of the deposited data

Results flagged for a closer look

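Among the 26 named histone clusters, the 6 WT arrays were searched for a lone value by Dixon's criterion, which chance meets in about 1 of 20 groups. It was met 3 times. H2ac1 was highest in WT 5 (13.48), with the other WT arrays from 13.31 to 13.37. The H3 cluster led by H3c10 was lowest in WT 4 (5.38), with the others from 5.77 to 6.00. The cluster of H3c15 and 7 other H3 genes was lowest in WT 2 (8.75), with the others from 8.84 to 8.87. Groups of 3 arrays were not searched.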

How the results depend on the processing

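For KO against WT, where no histone cluster passed over all clusters, 6 passed among clusters above the background limit, 3 with limma-trend and a robust prior and 2 with the replicate block (H1f6 and H2bc1, at -1.55 and -0.89). WT 4 to WT 6 share no number with a mutant, so the block sets KO against WT 1 to WT 3 only, without its own littermates. Chosen after seeing the data, a fit on clusters with a symbol gave 6, one on 1 cluster per gene 5, and limma-trend on clusters with a symbol 7. These fits called 4.32%, 4.86% and 8.12% of their clusters. Leaving out 1 array gave 0 to 4, the 4 without KO 2 (H1f6, H1f1, H2ac1 and H2bc1) and 1 without WT 6 (H2bc1). Above the limit, leaving out 1 array, also added after seeing the data, gave 0 to 8 histone clusters. The count was 0 without WT 1, WT 2, WT 3, WT 5, KO 1, KO 3 or KI 3. It was 1 without KI 2 (1.32% of clusters called), 5 without KI 1 (2.88%), 6 without KO 2 (11.4%), 7 without WT 6 (8.35%) and 8 without WT 4 (7.39%). Over all clusters the count went from 8 to 1233 above the limit, 691 with limma-trend, 689 with the block, 21 after quantile normalization, 1260 without KO 2 and 676 without WT 6. No histone cluster passed in the other comparisons under these settings. The replicate numbers did not pair the arrays (correlations of deviations from -0.02 to 0.15).

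The median KO difference of the members outside the germ cell group turned to 0.0280 with 1 cluster per gene and 0.0358 over members naming 1 gene. For KI against KO, the median of the germ cell members was 0.31 with littermate controls and 0.45 to 0.79 with an array left out. That of the others was -0.00615 with littermate controls, 0.0266 with 1 cluster per gene, 0.00255 over members naming 1 gene, and 0.0364 to 0.12 with an array left out. Of 818 values of named members, 783 kept direction and side of the threshold, 33 came to pass it, and 2 turned sign without WT 5: H2ac1 between WT litters (range with an array left out -0.0457 to 0.0405) and H1f6 between the effects (-0.10 to 0.643). The cause was not tested.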
